A study of Mus musculus with 3 samples.

Results

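The 9 genes described here encode transcription factors linked with the perimysial cells of the soft palate, the connective-tissue cells that surround the forming palatal muscles. They are *Hic1*, *Ebf1*, *Ebf2*, *Ebf3*, *Foxd1*, *Meox1*, *Nr2f1*, *Nr2f2* and *Bach2*. They were taken by symbol from the count matrices, in which all 9 were found among 32285 genes. They were chosen with earlier results of these data known. The samples were single-cell RNA libraries of the mouse soft palate at embryonic day 14.5 (strain C57BL/6), from 2 control libraries and 1 library of Osr2-Cre;Alk5fl/fl embryos, called the mutant here. Alk5 is the older name of *Tgfbr1*, the type I receptor of TGF-β, which the Osr2-Cre driver deletes in the palatal mesenchyme and not in the myogenic cells. The controls of this cross were littermates that carried 2 floxed *Tgfbr1* alleles or 1 floxed and 1 wild-type allele, and the labels do not say which of these a control library held. The study names these controls without Osr2-Cre, so the Cre allele and the deletion cannot be told apart in these libraries. Whether a library held 1 embryo or several, and of which sex, was not given in the sources used here. With 1 mutant library no test of the mutation was possible. Each value is therefore given by library, and a gene is called higher or lower where the mutant lay at least 1.5-fold above or below both controls.

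Perimysial cells derive from the cranial neural crest and form part of the niche in which myogenic progenitors of the palate settle and mature. HIC1 is a zinc-finger repressor that marks connective-tissue progenitors of muscle. The early B-cell factors EBF1, EBF2 and EBF3 bind DNA as dimers at a shared palindromic site, and act in lymphocytes, fat, bone marrow stroma and muscle connective tissue. FOXD1 is a forkhead factor of facial mesenchyme and kidney stroma, and MEOX1 a homeodomain factor of the somite and its connective-tissue derivatives. NR2F1 and NR2F2, also named COUP-TFI and COUP-TFII, are orphan nuclear receptors with roles in regional identity, and NR2F2 is a known regulator of vein identity. BACH2 is a basic leucine zipper repressor best known from lymphocytes.

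On GRCm38 with the GENCODE vM21 annotation, *Hic1* (ENSMUSG00000043099) occupied chr11:75164565-75169519 on the minus strand, with 3 exons after merging of its transcripts. *Ebf1* (ENSMUSG00000057098) and *Meox1* (ENSMUSG00000001493) lay on the same chromosome at chr11:44617317-45008091 and chr11:101877510-101894374. *Ebf2* (ENSMUSG00000022053) was at chr14:67233292-67430918, and *Ebf3* (ENSMUSG00000010476) shared chromosome 7 with *Nr2f2* (ENSMUSG00000030551), at chr7:137193673-137314445 and chr7:70351944-70366735. *Nr2f1* (ENSMUSG00000069171) and *Foxd1* (ENSMUSG00000078302) were at chr13:78188973-78199757 and chr13:98354242-98359305, and *Bach2* (ENSMUSG00000040270) at chr4:32238804-32586108. No other annotated gene overlapped *Hic1* or *Foxd1*. The other 7 overlapped at least 1 gene on the opposite strand, mostly antisense transcripts, and *Bach2* also 2 small genes on its own strand. Whether the counting used the strand is not stated in the sources used here. Whether reads of such a partner entered the count of a gene was not tested.

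RefSeq promoters on GRCm38.p6, read from 250 bases before to 50 after the transcription start, were at hand for 7 of the 9 genes (10 promoters). Of these, 2 are shown from the base 250 positions upstream to the base before the start, for *Hic1*, the gene that differed most in the perimysial-marker cells, and for *Nr2f2*, the only member called across the whole mesenchyme. Capitals mark the palindrome bound by EBF factors, TCCC and GGGA with any 2 bases between them, in *Hic1* (chr11:75168153-75168402, minus strand, in the first intron of its longest transcript), and TGTCTG, the reverse complement of the SMAD sequence CAGACA, in *Nr2f2* (chr7:70366747-70366996, minus strand, upstream of the gene).
*Hic1*: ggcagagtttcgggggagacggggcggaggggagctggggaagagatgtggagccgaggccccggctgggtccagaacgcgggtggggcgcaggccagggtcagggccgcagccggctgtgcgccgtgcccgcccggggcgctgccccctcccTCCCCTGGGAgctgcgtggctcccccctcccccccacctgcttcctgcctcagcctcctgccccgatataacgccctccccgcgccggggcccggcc
*Nr2f2*: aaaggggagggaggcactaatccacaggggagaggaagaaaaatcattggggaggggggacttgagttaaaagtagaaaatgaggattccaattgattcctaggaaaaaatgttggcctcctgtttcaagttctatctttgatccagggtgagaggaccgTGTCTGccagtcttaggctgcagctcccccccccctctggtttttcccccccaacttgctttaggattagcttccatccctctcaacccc
The EBF palindrome, searched on both strands, began 97 bases before the start of the *Hic1* promoter shown and was held by 1 of the 10 promoters of the members and by 0.904% of 32851 promoters of the same length. Another *Hic1* promoter (chr11:75170206-75170505, minus strand) did not hold it. CAGACA was in 3 of the 10, those of *Bach2*, *Foxd1* and *Nr2f2*, and in 21.0% of all promoters. In *Nr2f2* it began 90 bases before the start and shared its last bases with a TGCCA, a core of the HIC1 site, which 48.9% of all promoters held. The SMAD palindrome GTCTAGAC, the nuclear receptor repeat (AGGTCA, any 1 base and AGGTCA again) and the BACH site TGANTCA were in none of the 10, against 0.213%, 0.0396% and 7.81% of all promoters. These matches describe letters in a window and not bound sites.

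The libraries held 2816, 4067 and 8690 barcodes (control 1, control 2, mutant) with 22624711, 27814907 and 63505144 UMIs, that is, counted RNA molecules. After filters on genes per cell, mitochondrial reads and likely doublets, 1173, 1946 and 3484 cells were gated as palatal mesenchymal by at least 2 of the 6 markers *Prrx1*, *Pdgfra*, *Msx1*, *Runx2*, *Twist2* and *Twist1*, with at most 2 markers of any other type. None of the 9 members served in a gate, while *Runx2*, which did, was itself higher in the mutant mesenchyme (65.2, 63.7 and 159 CPM, the UMIs of a gene in each 1000000 summed UMIs). *Tgfbr1* stood at 55.2, 60.7 and 47.9 CPM. These 3′ tags do not read the deleted part and so do not check the genotype. Control 1 stood apart from the other libraries by the RNA of several other types in its mesenchymal cells: the 8 myogenic markers summed to 93.4 CPM there against 20.3 and 6.74, and the 8 myeloid markers to 52.8 against 22.1 and 4.13. The mural and cartilage markers were instead highest in the mutant (49.6, 53.0 and 80.9 CPM, and 52.9, 60.8 and 90.8 CPM). In the reverse direction, the mesenchymal markers in the myeloid cells of control 1 reached 32.1% of the mesenchymal level, against 2.76% in control 2 and 6.07% in the mutant. They summed to 304 CPM in all 40 of these control 1 cells. In the 30 with at most 1 such marker they summed to 46.7 CPM, a limit that lowers them by its own choice. The filters on genes and mitochondrial reads removed 699, 246 and 579 barcodes, the largest part in control 1. Neutrophils were gated in control 1 only (65, 0 and 0 cells). The libraries shared 18 barcodes between the controls, and 34 and 49 between a control and the mutant. Both controls are therefore given with each result. The part of this foreign RNA, of the barcodes removed, or of the *Runx2* difference in the gate, in the results was not tested.

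Across all mesenchymal cells *Nr2f2* was the only 1 of the 8 members with enough RNA to be compared (at least 10 CPM in at least 1 library) that was called in either direction. *Nr2f2* stood at 85.6 CPM in control 1, 87.2 in control 2 and 52.8 in mutant mesenchyme (900, 1064 and 1331 UMIs). The controls lay close together and the mutant 1.62- and 1.65-fold below them, whose 95% Poisson interval reached up to 55.7 CPM against a lower end of 80.1 in control 1. All intervals here cover counting error only. Of 9033 genes compared in the same way, 3.6% were called lower and 1.37% higher, so a call in 1 of 8 members rests on little beside that background. The call was lost when the libraries were scaled by TMM factors (a log2 ratio of −0.58 to the mean of the controls, in place of −0.71), when 3 mesenchymal markers were required (−0.52), and when the level in myeloid cells of the same library was subtracted (−0.50).

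*Hic1* was the member with the widest spread in the mesenchyme, at 56.0, 20.3 and 13.6 CPM (589, 247 and 343 UMIs). The mutant lay lowest, 4.12-fold below control 1 but only 1.49-fold below control 2, so that *Hic1* narrowly missed the call. The controls themselves were 2.77-fold apart. The same split between the controls was seen for *Ebf1*, with 435, 161 and 180 CPM (4572, 1963 and 4531 UMIs), where the mutant lay between controls that were 2.70-fold apart. Control 1 was thus the high library for both genes. RNA of both was also found in the myeloid cells of control 1. *Ebf1* was at 104 CPM there, against 6.80 and 11.1 in the other libraries. *Hic1* in these cells was at 9.61, 0 and 2.47 CPM, from 5, 0 and 2 UMIs. Set against the mesenchymal level of the same library, this was 23.9%, 4.23% and 6.19% for *Ebf1* and 17.2%, 0% and 18.2% for *Hic1*. In the myeloid cells with at most 1 mesenchymal marker (30, 84 and 132 cells), *Ebf1* was at 26.3, 6.80 and 3.97 CPM. *Hic1* was there at 2.92, 0 and 1.32 CPM. The remaining *Ebf* genes did not follow *Ebf1*. *Ebf3* was highest in the mutant, with 22.1, 13.4 and 28.8 CPM (232, 164 and 727 UMIs), or 1.31- and 2.14-fold above the controls. *Ebf2* was at 27.8, 21.8 and 27.3 CPM, with the mutant between the controls.

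In UMIs of the 3 *Ebf* genes together, which were not divided by gene length, *Ebf1* gave 89.7%, 82.0% and 76.2% in the libraries in the same order, and *Ebf3* gave 4.55%, 6.85% and 12.2%. The share of *Ebf3* was therefore highest in the mutant and that of *Ebf1* lowest. *Nr2f1* was at 223, 402 and 283 CPM with the mutant between the controls, and made up 72.3%, 82.2% and 84.3% of the UMIs of *Nr2f1* and *Nr2f2* together, a share that differed more between the controls than between control 2 and the mutant. *Foxd1* was at 36, 60.8 and 31.7 CPM, lowest in the mutant by only 1.14-fold against control 1. *Bach2* was nearly level at 13.4, 14.2 and 14.2 CPM, and *Meox1* was too low to be compared by the rule, at 5.80, 5.49 and 6.58 CPM (61, 67 and 166 UMIs).

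The controls were at least 1.5-fold apart for 5 of the 9 members, *Hic1*, *Ebf1*, *Ebf3*, *Foxd1* and *Nr2f1*, and for 16.9% of all genes compared. Over the 8 members compared, the median gap between the controls was 0.73 on the log2 scale, against 0.29 over all genes, and the median log2 ratio of the mutant to the mean of the controls was −0.32, against −0.077. By more than the gap between the controls, only *Nr2f2* lay below both, as 28.4% of all genes did, and *Ebf3* and the low *Meox1* above both, as 10.3% did; 3 members (*Ebf1*, *Ebf2* and *Nr2f1*) lay between the controls, as did 40.6% of genes. The spread between controls, seen for *Hic1* and *Ebf1* in the plot of levels by library, limits what these libraries can show for most members.

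**Figure D1:**
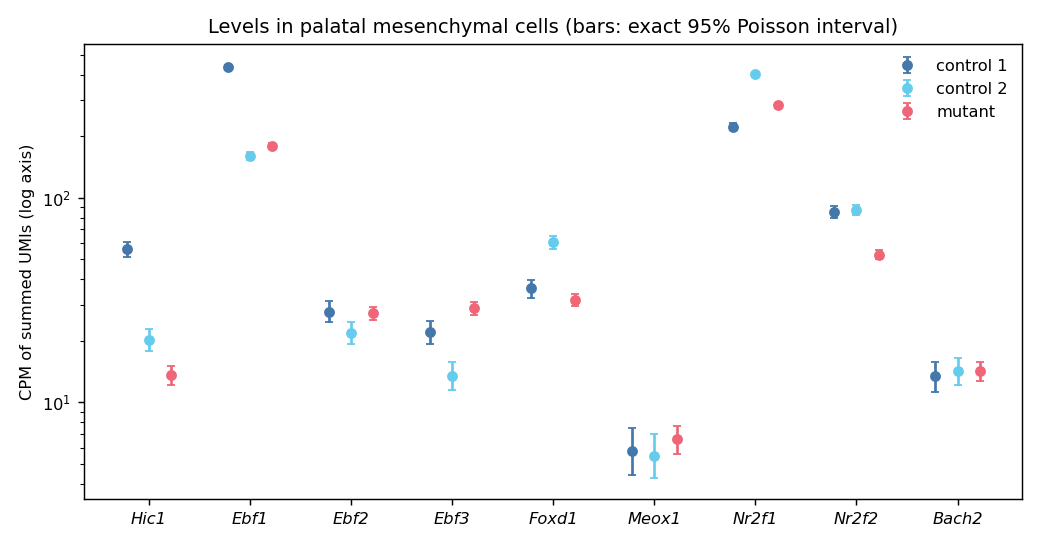
Levels of the 9 transcription factors in palatal mesenchymal cells, as CPM of the summed UMIs on a log axis. Each point is 1 library (control 1, control 2, mutant) and bars are 95% Poisson intervals, which cover counting error only. *Nr2f2* is the gene in which both controls lie close together (85.6 and 87.2) above the mutant (52.8), and *Hic1* and *Ebf1* are those in which control 1 stands far above the other libraries.

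The share of cells in which a factor was found depends on how many UMIs a cell has, and the median was 7958, 5361 and 5759 UMIs in the mesenchymal cells of control 1, control 2 and the mutant. Cells were therefore thinned to 2000 UMIs each, which left out 5, 83 and 107 shallower cells and kept 1168, 1863 and 3377. *Nr2f2* was then found in 15.4%, 15.4% and 8.44% of cells, and was again the only member called lower (6.53% of 10944 genes were, and 1.5% higher). Without thinning its shares were 41.3%, 34.9% and 24.6%, which is no call. In thinned myeloid cells, which should lack *Nr2f2*, it was found in 2.56%, 0% and 0% of 39, 78 and 135 cells, where 0 allows up to 3.85% in control 2 and 2.22% in the mutant. Before thinning these myeloid cells had medians of 11017.5, 6581 and 5192 UMIs. *Hic1* was found in 10.6%, 3.22% and 2.64% of thinned mesenchymal cells (28.3%, 9.20% and 7.78% unthinned), and in none of the thinned myeloid cells, which allows up to 7.69%, 3.85% and 2.22%. The *Hic1* shares of control 2 and the mutant thus lay no higher, or hardly higher, than what those few myeloid cells could hold unseen. *Ebf1* was in 39.6%, 22% and 26.5% of thinned mesenchymal cells and in 10.3%, 0% and 1.48% of the myeloid cells, taken without a limit on their mesenchymal markers.

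Most thinned cells held few of the 9 factors. In each control 31.6% of cells held none, against 40.9% in the mutant, and at least 2 in 32.0%, 27.5% and 22.1%. The mean number was 1.14, 1.05 and 0.878 a cell, lowest in the mutant, and no cell held more than 5.

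*Hic1* was called lower in the mutant in cells carrying perimysial markers, the only lower calls of a member in any of 7 marker domains. In cells with at least 1 UMI of *Aldh1a2*, the retinoic acid-synthesising enzyme used here as the perimysial progenitor marker, *Hic1* was at 95.5 and 71.4 CPM in the controls and at 31.0 CPM in the mutant. These levels rest on 151, 50 and 100 UMIs in 149, 85 and 296 cells, with intervals of 80.9–112, 53.0–94.2 and 25.2–37.7 CPM that leave the mutant below both controls. The mutant was 3.08- and 2.30-fold lower, a call shared by 6.17% of the genes compared in these cells. In cells with a UMI of *Tbx15*, a T-box factor, or *Smoc2*, a matricellular protein, used as perimysial fibroblast markers, *Hic1* was at 72.9, 33.8 and 15.4 CPM. Here too the mutant was called lower, 4.75- and 2.20-fold, as were 4.18% of genes. The intervals were 65.6–80.8, 28.5–39.9 and 13–18 CPM, from 363, 140 and 156 UMIs in 516, 518 and 985 cells.

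Both calls of *Hic1* were kept under TMM factors, doublets kept, at least 1 or at least 3 mesenchymal markers, and fewer filters on cells. They were also kept in cells without a UMI of *Mki67* or *Top2a* and with at least 2 UMIs of the domain markers. A call against both controls cannot be lost when 1 of them is left out, so that alternative is no check. The log2 ratio to control 2, the closer control, ranged from −0.94 to −1.38 in *Aldh1a2*-positive cells and from −0.94 to −1.22 in *Tbx15*- or *Smoc2*-positive cells. The cells picked by the markers were not equally frequent. *Aldh1a2*-positive cells made up 12.7%, 4.37% and 8.5% of the mesenchyme, and *Tbx15*- or *Smoc2*-positive cells 44.0%, 26.6% and 28.3%. These shares were taken in unthinned cells and so also depend on depth. The *Aldh1a2*-positive cells had medians of 9297, 7413 and 8360 UMIs, against 7885, 5302 and 5614.5 in the other mesenchymal cells. For *Tbx15* or *Smoc2* they were 8379.5, 6556.5 and 7925, against 7708, 5047 and 5178. *Tbx15* itself was called lower in the mutant mesenchyme (21.7, 15.2 and 5.43 CPM), while *Aldh1a2* was at 24.1, 12.2 and 18.4 CPM and *Smoc2* at 93.8, 61.1 and 59.2, so a gate by these markers need not hold the same kind of cells in each library, and the part of this in the *Hic1* difference was not tested. In bulk sums of cells of a gate, fewer *Hic1*-expressing cells and less *Hic1* RNA in each cannot be told apart.

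In the other 5 domains *Hic1* was not called. It was at 36.1, 13.8 and 15.1 CPM in cells with the progenitor markers *Tfap2b* or *Eya4*, where the mutant lay between the controls, and at 24.2, 6.98 and 6.13 CPM in cells with the osteogenic markers *Sp7* or *Ibsp*. In cells with the tendon markers *Scx* or *Tnmd* it was at 77.1, 28.3 and 21.7 CPM. Dividing cells (*Mki67* or *Top2a*) held it at 53.8, 18.9 and 13.1 CPM, with the mutant 4.11- and 1.44-fold lower. Cells with the midline markers *Lsp1*, *Wnt16* or *Sostdc1* held it at 59.1, 20.1 and 14.6 CPM (4.05- and 1.38-fold lower). Whether the *Hic1* difference was larger in the perimysial-marker cells than in these was not tested.

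*Nr2f2* lay below both controls in the cells of all 7 marker domains, but in none of them by 1.5-fold from both. The domains share cells with one another, so these are not 7 separate results. The share of all genes below both controls by any amount was not counted in the domains. By the 1.5-fold rule, 4.35% of all genes were called lower in osteogenic-marker cells, 4.14% in tendon-marker, 3.36% in progenitor-marker, 3% in dividing and 2.97% in midline-marker cells. In *Aldh1a2*-positive cells *Nr2f2* was at 121, 136 and 92.5 CPM, and in *Tbx15*- or *Smoc2*-positive cells at 81.2, 93.5 and 60.4 CPM. *Ebf3* ran the other way, although not in *Aldh1a2*-positive cells by the rule, where 4.49% of genes were called higher. It was called higher in tendon-marker cells, with 32.5, 22.3 and 48.9 CPM (1.5- and 2.20-fold; 2.54% of genes were called higher there), and in midline-marker cells, with 19.9, 12.5 and 30.4 CPM (1.53- and 2.44-fold; 1.47%). The midline markers *Lsp1*, *Wnt16* and *Sostdc1* were found in 58.8% to 79.8% of mesenchymal cells, so this domain is most of the mesenchyme. *Meox1* was called higher in progenitor-marker cells, with 3.61, 4.01 and 7.73 CPM (2.14- and 1.93-fold; 1.6% of genes), from low levels in all libraries.

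**Figure D2:**
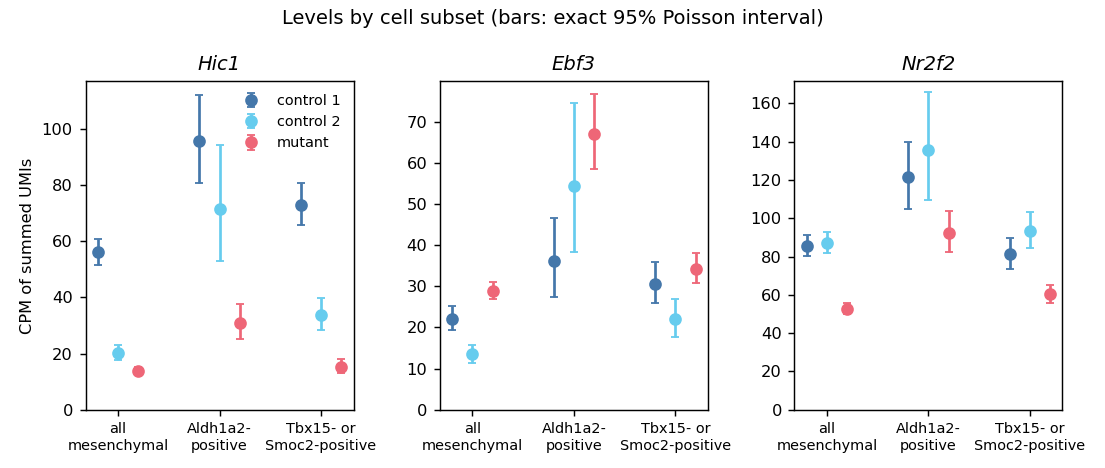
*Hic1*, *Ebf3* and *Nr2f2* in all mesenchymal cells, in *Aldh1a2*-positive cells and in *Tbx15*- or *Smoc2*-positive cells, as CPM of summed UMIs with 95% Poisson intervals; each point is 1 library. In both perimysial-marker sets the *Hic1* level of the mutant (31.0 and 15.4 CPM) lies below both controls (95.5 and 71.4; 72.9 and 33.8).

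Cells in which *Hic1* itself was found numbered 332, 179 and 271, or 28.3%, 9.20% and 7.78% of the mesenchyme. Since *Hic1* differed between the libraries, this gate need not hold the same kind of cells in each, and its part was not tested. *Ebf3* was highest in the mutant in the whole mesenchyme too (22.1, 13.4 and 28.8 CPM). In the *Hic1*-positive cells it was called higher in the mutant, at 37.8, 37.3 and 63.3 CPM (121, 52 and 193 UMIs). The controls lay together and the mutant 1.68- and 1.70-fold above them, with intervals of 31.4–45.2, 27.9–48.9 and 54.7–72.9 CPM. Of the genes compared in these cells, 4.66% were called higher and 5.21% lower. The *Ebf3* call was kept under all alternatives run, with log2 ratios from 0.72 to 0.88 against control 1 and from 0.59 to 0.95 against control 2. *Ebf1* was at 714, 309 and 297 CPM, with control 1 again apart, and *Ebf2* at 60.6, 83.2 and 65.9 CPM. *Nr2f2* stood at 112, 105 and 94.2 CPM, much closer between mutant and controls than in the whole mesenchyme. *Bach2* was at 11.2, 20.1 and 28.5 CPM, or 2.54- and 1.42-fold higher in the mutant.

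Within each library the levels in marker-positive cells were set beside those in the other mesenchymal cells. The marker-positive cells were the deeper ones by median UMIs in every domain and library. In tendon-marker cells the medians were 8941.5, 6407 and 8919.5 UMIs, against 7913, 5278 and 5339. CPM values are scaled for depth, and the part of depth in the choice of cells was not tested. A domain call required a level at least 2-fold above, or below, that of the remaining mesenchymal cells of the same library in every library. In *Aldh1a2*-positive cells *Ebf2* was called, at 65.8, 114 and 73.9 CPM, or 3.12-, 7.07- and 3.62-fold the level of the other cells; 0.316% of genes were called so, and 0.0102% below. Above the other cells in every library, by any amount, were 7 of the 9 members and 23.6% of genes. *Hic1* was 1.95-, 4.17- and 2.81-fold higher there and *Ebf3* 1.84-, 4.95- and 2.88-fold, both short of the call by control 1 alone. With at least 2 *Aldh1a2* UMIs, which kept 41, 31 and 89 cells, 4 members were called: *Hic1* (2.33-, 5.33- and 3.03-fold), *Ebf2* (3.98-, 10.2- and 5.30-fold), *Ebf3* (2.11-, 7.72- and 3.51-fold) and *Meox1* (2.24-, 16.1- and 2.69-fold), as were 1.04% of genes. With at least 1 UMI and control 1 left out 4 members were also called, against 0.825% of genes.

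In *Tbx15*- or *Smoc2*-positive cells 7 of the 9 members, all but *Nr2f1* and *Nr2f2*, were above the other cells in every library, as were 29.3% of genes. None reached the 2-fold call, which 0.0106% of genes did. *Ebf2* was 2.34- and 2.56-fold higher in the controls and 1.21-fold in the mutant, *Foxd1* 2.37-, 2.12- and 1.57-fold, and *Hic1* 1.79-, 2.55- and 1.24-fold. For these 3 genes the ratio was smallest in the mutant. The same held for *Ebf3* (2.11-, 2.43- and 1.35-fold) and *Meox1* (1.5-, 2.89- and 1.05-fold), but not for *Ebf1*, *Nr2f1*, *Nr2f2* or *Bach2*. One of the 3 libraries must hold the smallest ratio, and the share of all genes with it in the mutant was not counted. Depth also differed most in the mutant, with medians of 7925 UMIs in these cells and 5178 in the others. The controls had 8379.5 and 7708, and 6556.5 and 5047. The part of depth in these ratios was not tested.

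Tendon-marker cells stood out by *Meox1*, called at 24.2, 14.7 and 16.2 CPM, or 6.51-, 3.94- and 5.85-fold the other cells (26, 29 and 116 UMIs in 98, 235 and 632 cells; 0.156% of genes were called above and 0.0312% below). Osteogenic-marker cells were at the other end. No member was above the other cells there in every library, as 17.4% of genes were, and *Hic1* was called lower at 0.36-, 0.32- and 0.36-fold, as were 0.201% of genes. Higher calls there were made for 0.644% of genes. The ratio of *Hic1* was thus nearly equal in the 3 libraries although its level was not. In midline-marker, progenitor-marker and dividing cells no member was called, against 0.149%, 0.0317% and 2.37% of genes above and 0.16%, 0.0106% and 0.0107% below.

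**Figure D3:**
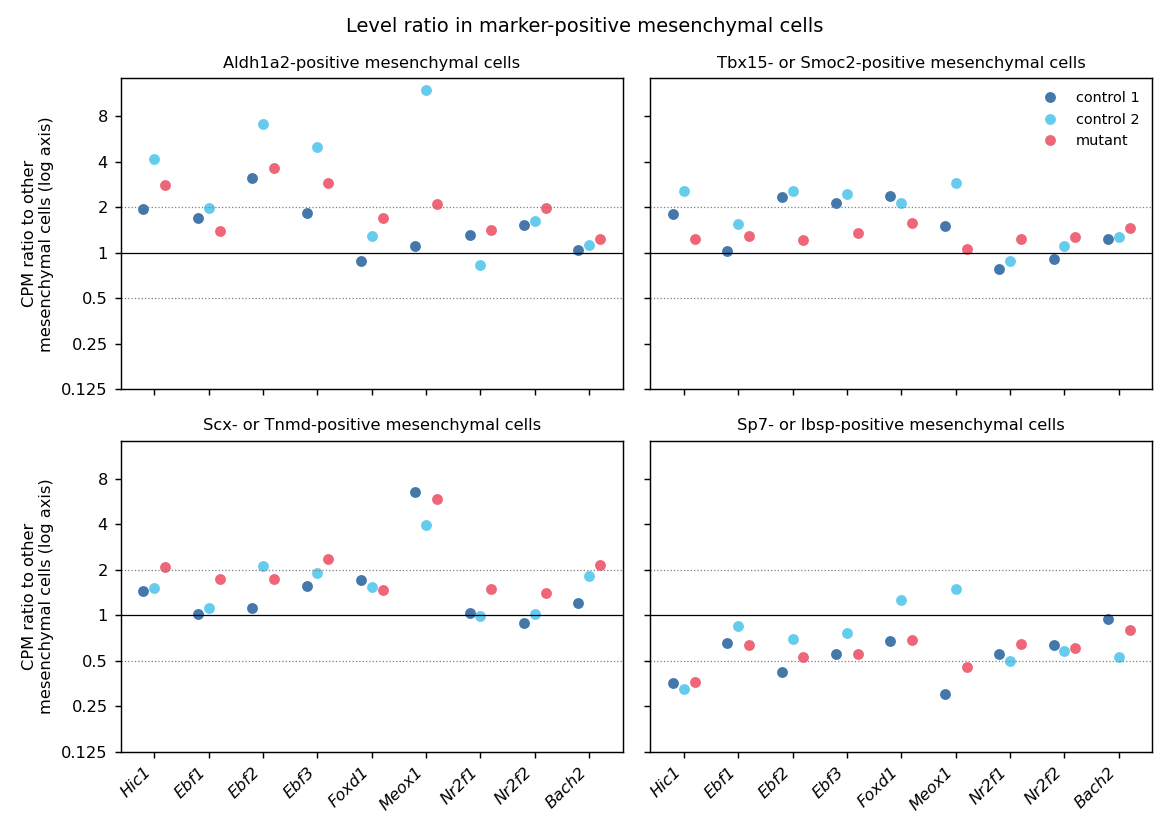
Ratio of the CPM in marker-positive cells to that in the other mesenchymal cells of the same library, on a log axis, for the 9 genes and 4 marker sets (*Aldh1a2*; *Tbx15* or *Smoc2*; *Scx* or *Tnmd*; *Sp7* or *Ibsp*). Each point is 1 library and dotted lines mark ratios of 2 and 0.5; *Ebf2* lies above 2 in every library in *Aldh1a2*-positive cells, *Meox1* in *Scx*- or *Tnmd*-positive cells, and *Hic1* below 0.5 in *Sp7*- or *Ibsp*-positive cells.

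The factors were also found together in the same cells. Over the 36 pairs of members, the odds ratio of finding both in a cell thinned to 2000 UMIs was at least 2 in every library for 6 pairs, against 2.01% of 59486778 pairs of all genes. These pairs were *Hic1*–*Ebf2*, *Hic1*–*Meox1*, *Ebf1*–*Meox1*, *Ebf2*–*Ebf3*, *Ebf2*–*Meox1* and *Ebf3*–*Meox1*, so that *Hic1*, *Ebf2*, *Ebf3* and *Meox1* gave 5 of the 6. *Hic1* and *Ebf2* were found together in 14, 10 and 14 cells, where their shares alone would give 5.41, 2.06 and 4.03, with odds ratios of 3.53, 6.67 and 4.34. *Ebf2* and *Ebf3* were together in 8, 10 and 27 cells against 2.36, 1.72 and 7.88, with odds ratios of 4.50, 8.37 and 4.54. Put as shares, 15.7%, 15.6% and 17.6% of the *Ebf2*-positive cells held *Ebf3*, against 4.12%, 2.22% and 4.56% of the remaining cells. The pairs with *Meox1* rest on few cells, since *Meox1* was found in 11, 12 and 30 thinned cells. *Hic1* and *Meox1* were together in 4, 3 and 6 cells.

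The odds ratio was above 1 in every library for 21 of the 36 pairs, as for 22.5% of all gene pairs. A second draw of the thinned UMIs gave 7 called pairs, against 2.12% of all gene pairs. Unthinned cells compared within classes of similar depth gave 10 called pairs, against 0.0389% of all gene pairs. These included *Hic1*–*Ebf3* (2.94, 3.84 and 3.80), *Hic1*–*Ebf1* (3.74, 2.76 and 3.26) and *Nr2f1*–*Nr2f2* (2.34, 2.33 and 2.81). The 5 pairs among *Hic1*, *Ebf2*, *Ebf3* and *Meox1* named above were called in all 3 ways of counting. *Ebf1*–*Meox1* was not: in control 1 its odds ratio was 0.619 in the second draw and 1.12 within depth classes. Cells of a library share its depth and free RNA, so these ratios are descriptions of each library.

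**Figure D4:**
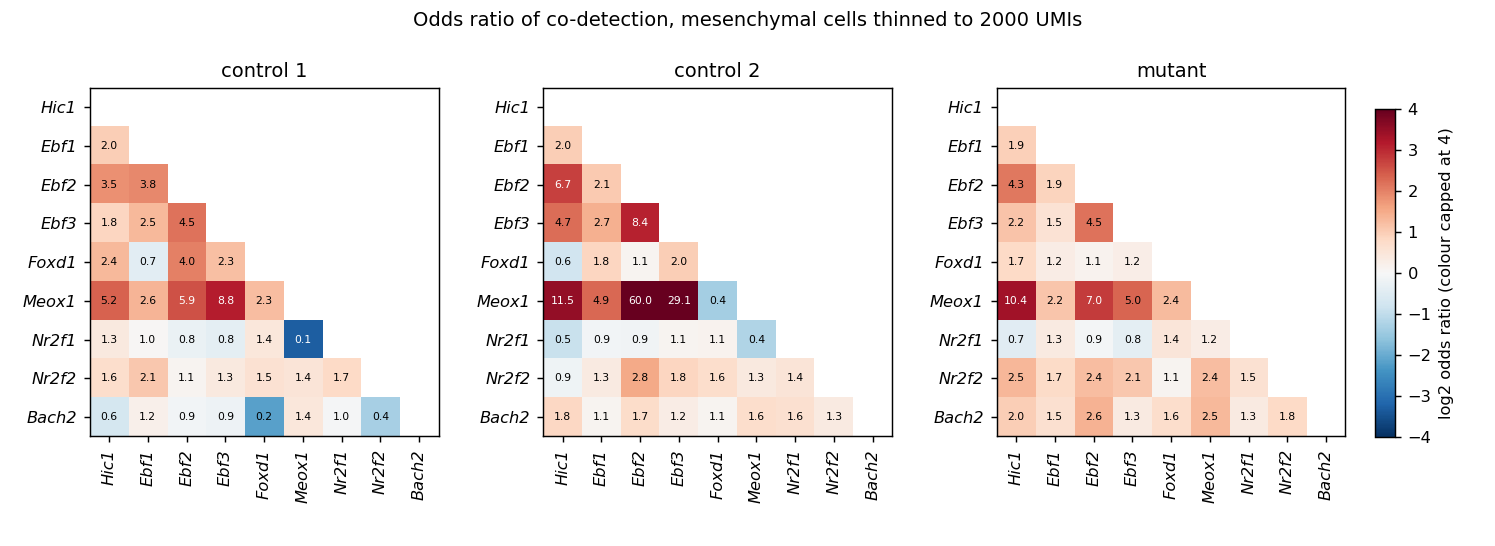
Odds ratios of finding 2 of the 9 transcription factors in the same mesenchymal cell, as 1 heat map for each library, with cells thinned to 2000 UMIs and a colour scale in log2 of the odds ratio. The numbers in the squares are the odds ratios, and red squares lie above 1; the pairs of *Meox1* with *Hic1*, *Ebf2* and *Ebf3* and the pair *Ebf2*–*Ebf3* (4.50, 8.37 and 4.54) have the highest values in every library.

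The gain of a factor in *Hic1*-positive over *Hic1*-negative cells differed among members. *Ebf2* was 4.52-, 5.99- and 3.01-fold higher with *Hic1*, *Ebf3* 2.49-, 3.6- and 2.63-fold, and *Ebf1* 2.28-, 2.18- and 1.81-fold. *Meox1* was 15.1- and 13.9-fold higher in the controls and 3.90-fold in the mutant. These *Meox1* ratios rest on only 8, 24 and 108 UMIs in the *Hic1*-negative cells, with intervals of 0.472–2.16, 1.42–3.31 and 4.00–5.88 CPM. *Nr2f1* had no common direction, at 1.22-, 0.76- and 1.29-fold, nor had *Bach2*, at 0.78-, 1.5- and 2.33-fold. *Hic1*-positive cells were deeper than the average mesenchymal cell, with medians of 8183.5, 6625 and 8241 UMIs, and the CPM values above are scaled for this.

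The members divided by cell type as well. Among the 4 types with enough cells in each library (mesenchymal, epithelial, myogenic and myeloid), *Hic1*, *Ebf1*, *Ebf2*, *Ebf3*, *Foxd1* and *Nr2f1* were highest in the mesenchyme in every library, as were 14.3% of 11221 genes. Some margins were narrow. In the mesenchyme of control 2 *Ebf3* was 1.07-fold above the myogenic gate, which held 12 UMIs of it. In the mutant mesenchyme *Foxd1* was 1.03-fold above the epithelial gate. *Meox1* was highest in the mesenchyme of the controls and, from 8 UMIs, in the myogenic cells of the mutant. *Nr2f2* and *Bach2* were highest in the epithelial gate. That gate (205, 315 and 430 cells) carried mesenchymal marker RNA at 23.8%, 47.0% and 56.2% of the mesenchymal level, so the values given here are those of its cells with at most 1 mesenchymal marker (134, 131 and 213 cells). In these *Nr2f2* was at 123, 78.3 and 90.7 CPM, or 1.44-, 0.897- and 1.72-fold the mesenchymal level, so the order of the 2 types was not the same in every library. *Bach2* was at 27.8, 44.3 and 20.8 CPM, or 2.07-, 3.12- and 1.47-fold. *Hic1* was at 4.36 CPM or less in these cells in each library, and *Ebf1* at 25, 11.9 and 31.3 CPM.

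The endothelial cells with at most 1 mesenchymal marker, 76 in control 2 and 215 in the mutant, held *Nr2f2* at 204 and 137 CPM, or 2.34- and 2.59-fold the mesenchymal level of the same library. *Ebf3* (32.2 and 38.4 CPM) was at 2.39- and 1.33-fold and *Meox1* (15.4 and 17.3 CPM) at 2.80- and 2.63-fold that level, while *Ebf1* (108 and 158 CPM) was below it. Myogenic cells under the same limit (67, 88 and 70) held *Nr2f2* at 45.1, 55.7 and 58.0 and *Ebf1* at 48.7, 83.6 and 65.5 CPM. Neuronal cells were numerous enough in the mutant library alone (266 cells), and there *Ebf1* was at 650 CPM, *Ebf2* at 51.2, *Ebf3* at 62.9 and *Bach2* at 99.0, each above its mesenchymal level of the same library. In the 58 glial cells of the mutant *Nr2f2* reached 299 CPM. *Ebf1*, *Ebf2*, *Ebf3* and *Bach2* were thus not confined to mesenchymal cells.

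**Figure D5:**
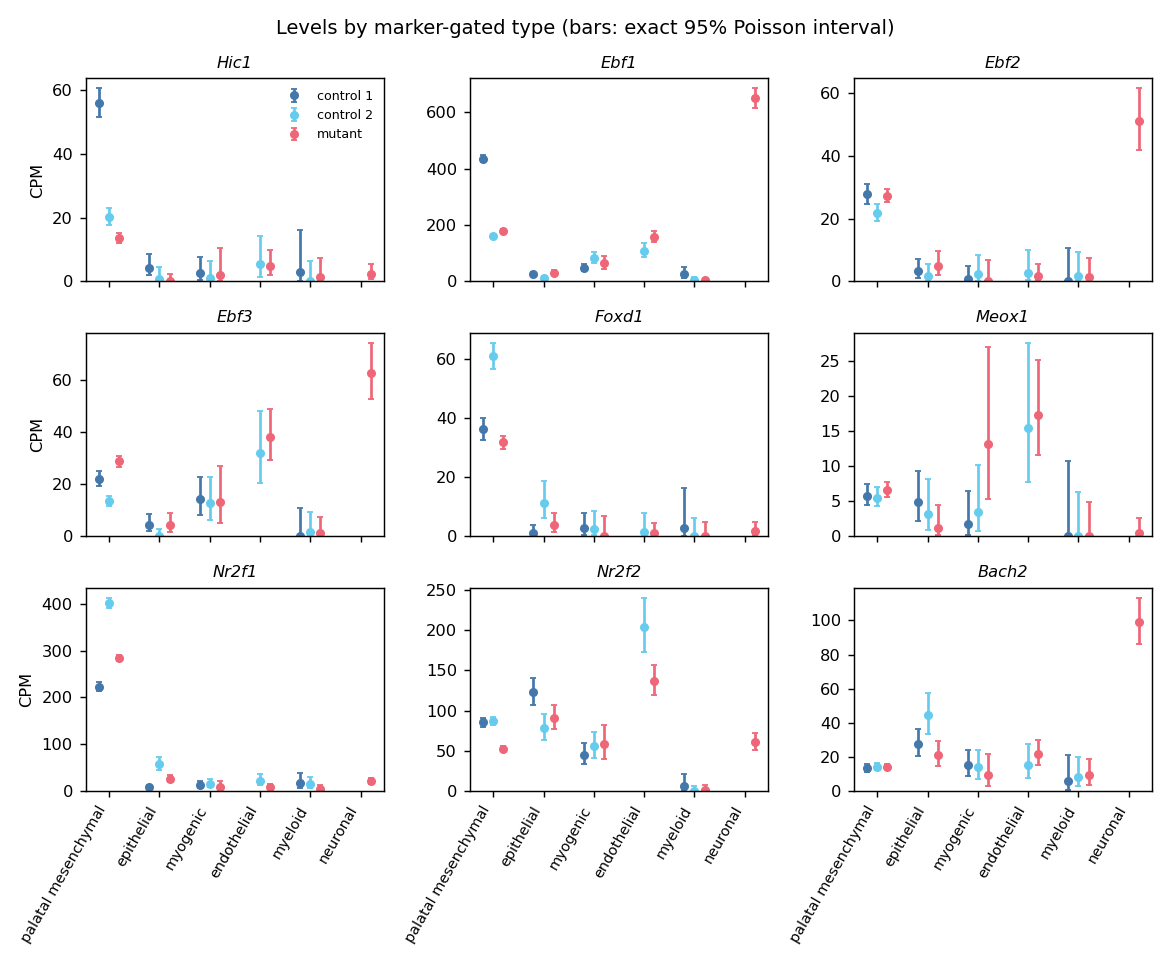
Level of each of the 9 transcription factors by cell type, as CPM of summed UMIs, in mesenchymal cells and, among cells with at most 1 mesenchymal marker, in epithelial, myogenic, endothelial, myeloid and neuronal cells. Each point is 1 library with enough cells of the type and bars are 95% Poisson intervals; *Nr2f2* lies high in endothelial cells (204 and 137 CPM) and *Ebf1* in the neuronal cells of the mutant (650 CPM), and *Hic1* is low outside the mesenchyme.

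For each member the genes most like it were taken as those with the highest ratio of CPM between mesenchymal cells with and without the member, by the lowest of the 3 libraries. The list for *Hic1* was led by *Meox1*, followed by *Ntm* (3.68-, 3.68- and 3.30-fold), a cell adhesion molecule, *Aldh1a2* (3.07-, 6.33- and 3.29-fold), the neurotrophin receptor *Ntrk3* (5.26-, 4.02- and 3.04-fold) and *Itih5* (3.43-, 3.04- and 3.46-fold). That of *Ebf2* held *Meox1* (4.28-, 23.3- and 6.65-fold), *Npr3*, *Shisa3*, *Aldh1a2* (3.58-, 11.7- and 4.29-fold) and *Ebf3* (3.69-, 6.54- and 3.47-fold). *Ebf3* had *Ebf2*, *Fap*, *Itih5*, *Trabd2b* and *Ntrk2*, and *Ebf1* had *C130073E24Rik*, *Npy*, *Ebf2*, *Hic1* and *Abca3*. Members thus appeared in the lists of one another. They were chosen as perimysial factors with earlier results of these data known. The lists also draw on the same cells as the odds ratios, so this is no independent evidence.

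*Foxd1* and the nuclear receptors had other partners. *Foxd1* had *Dqx1* (13.6-, 11.6- and 4.44-fold), *Tbx15* (4.69-, 2.64- and 2.44-fold), *Cdh4*, *Nell1* and *Grp*. *Nr2f1* had *Nxph1*, *Alkal2*, *Adcy7*, *Igsf9b* and *4933431K23Rik*. *Nr2f2* had *B130024G19Rik*, then *Shox2* (3.0-, 2.05- and 2.04-fold) and *Pitx1*, both homeobox factors of the palate and limb, *Ebf3* and *Aldh1a2*. *B130024G19Rik* overlaps *Nr2f2* on the opposite strand, and whether they share reads was not tested. *Bach2* had *Shox2*, *Bcl2l2*, *Itgb8*, *Tshz1* and *Samd4*, with ratios that stayed low (1.57-, 1.66- and 1.70-fold for *Shox2*). *Meox1* was found in too few cells for such a list.

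Over 20 groups of cell type and library, the closest gene by Pearson correlation of log2(CPM + 1) was *Osr1* for *Hic1* (r = 0.901), *Tmem246* for *Ebf1* (0.913), *Kcnh7* for *Ebf2* (0.936), *Armcx4* for *Ebf3* (0.849), *Bcl9l* for *Foxd1* (0.955), *Pdgfd* for *Meox1* (0.863), *Postn* for *Nr2f1* (0.978), *Arhgef12* for *Nr2f2* (0.936) and *Erc2* for *Bach2* (0.881). Groups of 1 library share its depth and free RNA, and these correlations are descriptions.

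Relatives of the members in the same gene families gave no call among the 4 compared (median log2 ratio −0.20); *Meox2*, the paralogue of *Meox1*, was at 150, 272 and 107 CPM. Among 29 of 32 other connective-tissue factors that could be compared, the median was −0.017 against −0.077 over all genes. Of these factors 6 were called higher and 4 lower, against 1.37% and 3.6% of all genes. Those higher included *Foxp1* (63.8, 104 and 168 CPM), *Foxp2* (48.1, 69.8 and 179 CPM), *Foxc1*, *Eya1* and the tendon factor *Scx*. Those lower were *Osr2* (243, 324 and 102 CPM), the gene whose regulatory elements drive the Cre, *Tbx15*, *Creb5* (173, 150 and 57.6 CPM) and *Pitx1* (103, 28.6 and 3.33 CPM). Only the mutant is named as carrying the Cre, and the part of the Cre allele in the *Osr2* level was not tested.

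Of other perimysial markers, 12 of 13 could be compared, with a median log2 ratio of −0.69. They gave 4 lower calls and no higher call, against 3.6% and 1.37% of all genes. The 4 were the angiotensin receptor *Agtr2* (172, 133 and 72.6 CPM), the matrix protein *Fbln1* (85.9, 66 and 43.8 CPM), the growth factor *Fgf18* (26.5, 16.6 and 5.39 CPM) and *Tgfbi* (46.6, 60.02 and 26.8 CPM), whose product is a TGF-β-induced matrix protein. The list was drawn from the study of these libraries and is not independent evidence of its direction. The transcription factors had 1 lower call of 8 compared and a median of −0.32.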

How the data were processed

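Single-cell RNA (10x Genomics 3′ v2) was measured in 3 libraries. The deposited matrices hold raw UMI counts per gene and filtered barcode, made by the authors with Cell Ranger (4.0.0 per the file headers, 3.1.0 per the submitters' processing notes) on mm10; the annotation was not stated. The authors' joining of the controls was not used, and 0 columns of sample values were left unused. Depths are given in the report. The members and lists were chosen with earlier results of these data known.

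A barcode had to show at least 500 genes, and its mitochondrial share could not exceed 10%. Scrublet's own threshold did not work, so the highest doublet scores were left out at 0.8% per 1000 cells. Type gates needed at least 4 markers of 1 other type (erythroid 3); the gate was set from marker counts alone, after these were seen. CPM was computed from summed UMIs, with exact 95% Poisson intervals. Genes of at least 10 CPM in at least 1 library were compared. Intervals and limits for a count of 0 (3 UMI-positive cells) cover counting error only. Odds ratios had 0.5 added to each cell of the table. No p-value was computed, since there is 1 mutant library.

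The text names the 9 members, for each the 5 genes with the highest lowest-library ratio (at least 50 positive cells and 20 UMIs in each library), the nearest of 3 genes by correlation over types, and list members on which a sentence turns. Alternatives are given in the closing section. Of the gene IDs, 32158 matched GENCODE vM21. Python 3.11.15, numpy 2.4.6, scipy 1.17.1, pandas 2.3.3, scanpy 1.11.5, R 4.3.3 and edgeR 4.0.16 (TMM factors) were used, and the steps were checked on simulated data. The values of 1 gene of the lists are not reported here.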

Additional observations from a re-analysis of the deposited data

How the results depend on the processing

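The log2 ratio of the mutant to the controls kept its sign under every alternative run for *Hic1*, *Ebf3*, *Foxd1*, *Meox1* and *Nr2f2*, and changed it in at least 1 for *Ebf1*, *Ebf2*, *Nr2f1* and *Bach2*, none of which was called with both controls in the main setting. The number of members called lower was 1, and became 0 with TMM factors, 0 with at least 3 mesenchymal markers (where *Ebf3* made 1 higher call) and 0 with a fold of 2; it was 2 (*Hic1* and *Nr2f2*) with at least 1 mesenchymal marker, with doublets kept and with cells without *Mki67* or *Top2a* UMIs. With 1 control left out it was 2 to 3 lower and 0 to 1 higher: without control 1 *Ebf3* was called higher and *Foxd1* and *Nr2f2* lower (2.66% and 9.64% of all genes were called higher and lower), and without control 2 *Hic1*, *Ebf1* and *Nr2f2* lower (6.39% and 7.57%). With the level of all gated myeloid cells subtracted, an alternative chosen after seeing the data, 7 members could be compared and *Hic1* alone was lower, while 12.2% of genes were called higher and 13.9% lower. TMM factors moved the median of all genes by 0.14 on the log2 scale, and the share of calls that were higher from 27.6% to 47.2%. Unthinned shares of cells gave 0 members lower. Called pairs numbered 10 with depth classes in place of thinning and 10 at an odds ratio of 1.5. The odds ratio of *Ebf2*–*Nr2f1* was below 1 in every library in the first draw (0.825, 0.914 and 0.946) but not in the second (0.783, 0.74 and 1.24), and was above 1 within depth classes (1.94, 1.27 and 1.71). Members called in *Aldh1a2*-positive cells numbered 4 with at least 2 UMIs, and 1 to 4 with a control left out, 4 without control 1. Leaving out a control for the cell types, pairs and domains, the second draw and the alternatives for *Hic1* and *Ebf3* in cell sets were also chosen after seeing the data. No paired analysis was possible because the mutant label carries no replicate number. With controls up to 2.77-fold apart and 1 mutant library, changes smaller than the gap between controls could not be told from it.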
